A study of Mus musculus with 4 samples.

Results

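The genes for inhibitors of cyclin-dependent kinases (CDKs) were described across the cells of mouse femur and tibia. The gene table was searched for the symbols Cdkn1a, Cdkn1b, Cdkn1c, Cdkn2a, Cdkn2b, Cdkn2c, Cdkn2d and Cdkn3, and all 8 were found among its 32285 genes. The study profiled single cells from 1 young mouse of 6 months and 1 old mouse of 24 months, both INK-ATTAC and both with no treatment. INK-ATTAC mice carry a transgene in which a fragment of the p16 promoter drives an inducible caspase 8. Marrow and digested bone were pooled, depleted of lineage-marked blood cells, stained with a CD24 antibody that carries an oligonucleotide, and sorted for live CD45- cells before droplet sequencing from the 3′ end of the transcripts. Each mouse therefore gave 1 RNA library and 1 antibody library, and the mouse is the only replicate, so every difference between ages rests on 1 animal per age and carries no test.

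CDKs bound to cyclins drive the cell cycle, and these genes encode proteins that hold them back. The CIP/KIP proteins, p21 (Cdkn1a), p27 (Cdkn1b) and p57 (Cdkn1c), bind complexes of cyclin and CDK, chiefly those that act at the entry to DNA synthesis. The INK4 proteins, p16 (Cdkn2a), p15 (Cdkn2b), p18 (Cdkn2c) and p19 (Cdkn2d), bind CDK4 and CDK6 and keep the D-type cyclins off them. Cdkn3 encodes a phosphatase that removes an activating phosphate from CDK2 and CDK1, so it shares the name but belongs to neither the CIP/KIP nor the INK4 proteins. Cdkn2a and Cdkn1a are widely used as markers of cellular senescence, a lasting exit from the cell cycle.

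In the RefSeq annotation of GRCm38.p6, the assembly also called mm10, Cdkn1a lies at chr17:29090979-29100722, Cdkn1b at chr6:134920401-134925525 and Cdkn1c at chr7:143458339-143461059. Cdkn2a at chr4:89274473-89294619 and Cdkn2b at chr4:89306289-89311032 are neighbours on the minus strand. Cdkn2c lies on the same chromosome at chr4:109660876-109666756. Cdkn2d lies at chr9:21288459-21291421 and Cdkn3 at chr14:46760461-46771530. Cdkn2a has start sites in RefSeq whose promoter windows begin 12427 bases apart, one for p16 and one for p19Arf, which share their last exons. A library read from the 3′ end counts both together, so a Cdkn2a count is not a count of p16 alone.

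A promoter window of 250 bases before and 50 bases after the start site was listed for 7 of the 8 genes. The windows of Cdkn3, Cdkn2c and Cdkn2d are printed because these 3 genes rest on the most UMIs among the 4 that were higher in mesenchymal cells in G2 or mitosis, as shown further on. The windows of the fourth, Cdkn2a, held 1 CCAAT in one and 1 match to the E2F site in the other and are not printed. Capitals mark the motifs, searched on both strands, so that a motif may stand as its reverse complement. CCAAT boxes are known from promoters of genes transcribed in G2 and mitosis. So is the element searched as TTTGAA and, in its second spelling, as TTTAAA. The third motif was the E2F site, searched as TTCCCGC and, in its second spelling, as TTGGCGC. The windows are written 5′ to 3′ along the gene.
Cdkn3, chr14:46760291-46760590, plus strand: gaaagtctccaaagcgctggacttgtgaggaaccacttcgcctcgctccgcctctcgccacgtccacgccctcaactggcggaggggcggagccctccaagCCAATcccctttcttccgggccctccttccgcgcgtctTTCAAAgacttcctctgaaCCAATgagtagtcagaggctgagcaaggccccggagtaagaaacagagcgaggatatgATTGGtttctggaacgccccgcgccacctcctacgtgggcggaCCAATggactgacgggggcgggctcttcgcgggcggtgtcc
Cdkn2c, first start, chr4:109666707-109667006, minus strand: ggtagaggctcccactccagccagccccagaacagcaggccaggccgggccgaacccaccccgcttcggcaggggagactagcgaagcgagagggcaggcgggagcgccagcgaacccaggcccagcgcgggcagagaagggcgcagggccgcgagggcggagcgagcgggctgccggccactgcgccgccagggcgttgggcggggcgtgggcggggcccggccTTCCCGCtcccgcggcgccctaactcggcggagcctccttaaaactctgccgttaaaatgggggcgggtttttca
Cdkn2c, second start, chr4:109665323-109665622, minus strand: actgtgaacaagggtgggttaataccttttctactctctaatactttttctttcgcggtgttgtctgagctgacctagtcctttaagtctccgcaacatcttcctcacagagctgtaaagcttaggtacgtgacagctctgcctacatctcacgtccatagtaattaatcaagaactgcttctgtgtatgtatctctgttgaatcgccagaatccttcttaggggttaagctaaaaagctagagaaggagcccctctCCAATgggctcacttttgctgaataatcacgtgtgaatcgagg
Cdkn2d, chr9:21291160-21291459, minus strand: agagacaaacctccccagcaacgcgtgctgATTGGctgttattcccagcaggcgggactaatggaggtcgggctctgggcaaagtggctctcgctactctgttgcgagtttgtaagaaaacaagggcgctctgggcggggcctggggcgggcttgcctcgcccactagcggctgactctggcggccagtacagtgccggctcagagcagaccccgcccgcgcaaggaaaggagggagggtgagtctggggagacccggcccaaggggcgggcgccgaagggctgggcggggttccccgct
The Cdkn3 window held CCAAT 4 times and the TTTGAA element 1 time, and no match overlapped another. At least 4 CCAAT matches stood in 1.06% of the 32851 promoter windows of this length, and at least 1 in 37.4%. The TTTGAA element in either spelling stood in 27.6% of windows, and it stood together with CCAAT in 10.7%. For comparison, 3 of the 5 genes of the G2 and mitosis list that had a window held both, and so did the window of Cdkn1b, with 3 CCAAT matches and 1 TTTGAA element. The first Cdkn2c window held 1 match to the E2F site in its 2 spellings, which 6.81% of windows hold, and the second Cdkn2c window and the Cdkn2d window held 1 CCAAT each. A match of letters is a description of the window and not a bound site.

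The young library held 10063 cells after filtering, with a median of 6385 unique molecular identifiers (UMIs, each counting 1 captured transcript) per cell, and the old library held 5607 cells with a median of 9711. In the 2 libraries 19 cell barcodes were shared among the kept cells. Cells were placed in a group when at least 3 of the 6 markers of that group were detected, and at least 2 more than of any other group. The 10 groups with at least 20 cells in each mouse were named after their markers as marrow stromal-like, osteoblast-like, chondrocyte-like, fibroblast-like, tendon-like, erythroid-like, B-lineage-like, neutrophil-like, megakaryocyte-like and hematopoietic progenitor-like, and are given below without the suffix. The median cell of these groups showed 4 to 6 of its 6 markers. The labels call all cells mesenchymal, yet the 5 blood groups each held between 0.666% and 5.80% of a library, and 27.9% of young and 27.4% of old cells stayed unassigned. In every group the old cells were sequenced more deeply, so levels are given as CPM (the UMIs of a gene per 1000000 UMIs of the group) with exact 95% Poisson intervals, which cover counting error only. Where a pair of values is given for a gene and group, the young mouse comes first and the old mouse second.

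The inhibitors reached their highest levels in different cell groups. Across the 10 groups, 7 of the 8 genes reached their highest CPM in the same group in both mice. The group was chondrocyte for Cdkn1a, B-lineage for Cdkn1b and Cdkn2c, tendon for Cdkn1c, osteoblast for Cdkn2a, megakaryocyte for Cdkn2d and erythroid for Cdkn3. Cdkn2b was highest in osteoblasts of the young mouse and in fibroblasts of the old mouse.

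**Figure D1:**
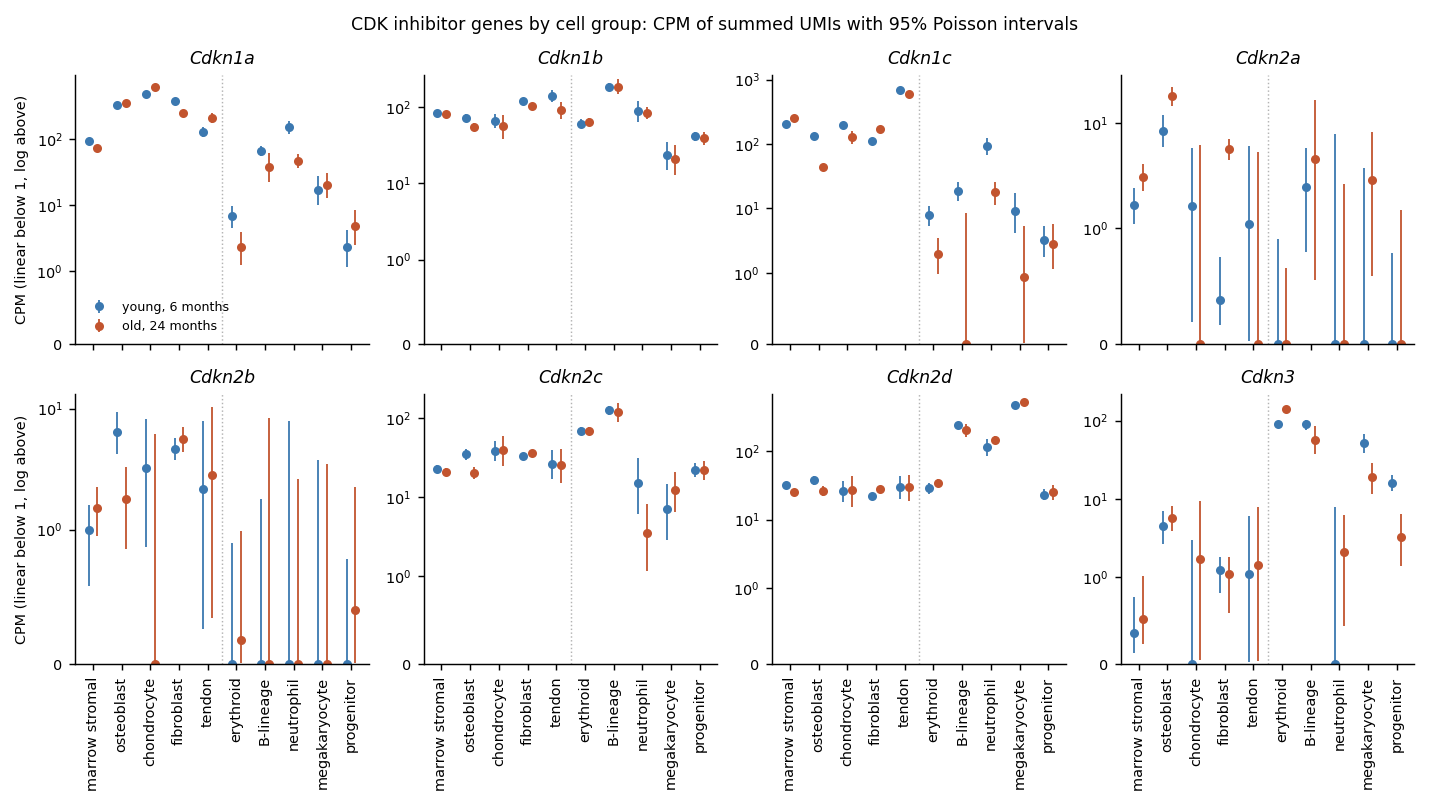
Level of each gene in CPM (vertical axis, linear below 1 and logarithmic above) in 10 cell groups (horizontal axis), with young and old mice as blue and orange points and exact 95% Poisson intervals as bars. The dotted line parts 5 mesenchymal groups on the left from 5 blood groups on the right, and Cdkn1a and Cdkn1c stand high on the left while Cdkn3 stands high on the right, where the erythroid group reached 89.5 CPM and 139 CPM.

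Differences between groups were tested on the UMIs summed per mouse and group with edgeR's quasi-likelihood test, with the mouse as a block and Benjamini-Hochberg adjustment over all 13512 genes tested. Each mesenchymal group was set against the mean of the other mesenchymal groups, and each blood group against the mean of the mesenchymal groups. Of the 8 genes, 3 passed in the marrow stromal contrast, all lower, where 40.3% of all genes passed. In osteoblasts 4 passed, 3 of them higher, against 23.3% of all genes. In chondrocytes 1 passed, higher, against 19.1%. In fibroblasts 3 passed, all higher, against 28.7%. In tendon cells 1 passed, higher, against 7.11%. In the blood groups most genes of the whole table differed from the mesenchymal mean. There 7 inhibitors passed in B-lineage cells (background 61.3%), 7 in erythroid cells (75.0%), 6 in hematopoietic progenitors (70.4%), 6 in megakaryocytes (60.3%) and 5 in neutrophils (56.8%). These shares lie near the background in several contrasts, so the count of inhibitors is not particular to them and the values below are what the data give. With DESeq2's size factors in place of edgeR's scaling, the share of calls that were higher over all genes moved from 48.0% to 60.9% in chondrocytes, from 75.9% to 58.5% in fibroblasts, from 66.8% to 79.4% in tendon cells and from 34.8% to 51.9% in neutrophils. The median log2 fold change of all genes moved with it by 0.13, -0.17, 0.15 and 0.49 in these groups, by -0.16 in erythroid cells and by -0.12 in progenitors.

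Cdkn1a, whose product p21 is the best known target of p53, stood highest in chondrocytes, osteoblasts and fibroblasts. It held 484 CPM in young and 635 CPM in old chondrocytes, at 333 and 362 in osteoblasts, and at 388 and 253 in fibroblasts. Tendon cells held 131 and 214 CPM, and marrow stromal cells 95.3 and 73.2 CPM. The order of osteoblasts and fibroblasts differed between the mice, and the other mesenchymal groups kept their order in both. The log2 fold change was 1.58 in chondrocytes (SE 0.25, edgeR adjusted p = 1.7e-04) and -2.17 in marrow stromal cells (SE 0.30, edgeR adjusted p = 1.7e-05). In osteoblasts it was 0.82 (SE 0.25, edgeR adjusted p = 0.023), which did not pass with DESeq2 (adjusted p = 0.16). The value in fibroblasts was 0.59 (SE 0.25) and in tendon cells -0.82 (SE 0.30), and neither passed. A UMI of Cdkn1a was seen in 63.8% of young and 58.6% of old fibroblasts, at median depths of 7643 and 12262 UMIs.

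Most blood groups held less Cdkn1a. Hematopoietic progenitors stood at 2.33 CPM and 4.84 CPM, with a UMI in 5.03% and 11.1% of cells at median depths of 23299 and 32248, a share that free RNA in the droplets can also give. Erythroid cells held 6.85 and 2.31 CPM, megakaryocytes 17.2 and 20.7 CPM, and B-lineage cells 66.4 and 38.8 CPM. The log2 fold change against the mesenchymal mean was -6.12 in progenitors (SE 0.46), -5.46 in erythroid cells (SE 0.42), -3.32 in megakaryocytes (SE 0.41) and -2.32 in B-lineage cells (SE 0.35), and all 4 passed with edgeR. The young mouse alone gave -1.86 in B-lineage cells and the old mouse alone -2.97. Neutrophils were the exception, with 152 CPM and 47.4 CPM. Their log2 fold change of -0.98 (SE 0.32, edgeR adjusted p = 0.015) did not hold, since it was 0.09 in the young mouse alone and -0.45 with DESeq2's size factors (adjusted p = 0.28). Neutrophils were also the shallowest group, at medians of 2352 and 3432 UMIs.

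The immediate-early genes, transcription factors and related genes switched on within minutes of a stimulus, tissue digestion included, were summed beside Cdkn1a. Their 8 genes held 16191 CPM in young and 16678 CPM in old chondrocytes, the groups with the most Cdkn1a, and 6 of the 8 were higher in the chondrocyte contrast. They held 9845 and 8504 CPM in marrow stromal cells, where Cdkn1a was low, and 7586 and 5189 CPM in osteoblasts, where it was high, so the orders of the sums and of Cdkn1a were not the same. In B-lineage cells, erythroid cells, progenitors and megakaryocytes all 8 were lower. The part of this response in the level of Cdkn1a was not tested. Of the 10 p53 targets on a fixed list, 4 were higher in the fibroblast contrast, among them Eda2r by 3.95 (SE 0.59) and Zmat3 by 0.99 (SE 0.19) on the log2 scale. In chondrocytes, where Cdkn1a was highest, 1 was higher (Btg2, 0.93, SE 0.22) and 3 were lower, among them Zmat3 at -1.89 (SE 0.42). In marrow stromal cells, the mesenchymal group with the least Cdkn1a, 2 targets were higher (Gdf15, 2.09, SE 0.49, and Trp53inp1, 0.86, SE 0.16) and 0 lower. Osteoblasts had 0 higher and 1 lower (Btg2, -1.06, SE 0.25), and tendon cells 1 higher and 0 lower. Klf4, a transcription factor known to activate Cdkn1a, was lower in marrow stromal cells (log2 fold change -2.21, SE 0.38) and higher in chondrocytes (1.97, SE 0.30) and fibroblasts (1.43, SE 0.30). It was also lower in neutrophils (-2.69, SE 0.42), where the call of Cdkn1a did not hold. Klf4 is 1 of 16 listed regulators. Of these, 3 were higher and 6 lower in marrow stromal cells, 5 and 1 in chondrocytes, and 3 and 2 in fibroblasts. The backgrounds were 40.3%, 19.1% and 28.7% of all genes. The part of Klf4 in the level of Cdkn1a was not tested.

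Cdkn1b, whose product p27 is regulated mainly through its protein's breakdown, was found in every group. B-lineage cells stood highest at 183 CPM and 185 CPM, and megakaryocytes lowest at 23.3 and 20.7 CPM. Fibroblasts held 121 and 104 CPM and progenitors 41.1 and 38.7 CPM. It was higher in B-lineage cells (log2 fold change 0.94, SE 0.15, edgeR adjusted p = 2.9e-05), fibroblasts (0.66, SE 0.13) and neutrophils (0.63, SE 0.17; 1.32 from the old mouse alone), and lower in megakaryocytes (-1.55, SE 0.22) and progenitors (-0.94, SE 0.16). By CPM the neutrophils, at 88.0 and 84.1, did not stand above the mesenchymal groups. Those lay between 65.7 and 139 CPM in the young and between 54.8 and 104 CPM in the old mouse. The neutrophil call as higher thus rests on the scaling between groups. The call in fibroblasts was lost when every cell was thinned to 2000 UMIs (0.27, edgeR adjusted p = 0.35).

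Cdkn1c, an imprinted gene expressed from the maternal copy, marked tendon cells. They held 703 CPM and 605 CPM, with a UMI in 80.9% and 82.8% of cells. Marrow stromal cells followed at 205 and 254 CPM, and the lowest mesenchymal value was 43.7 CPM in old osteoblasts. In the fit the log2 fold change was 1.99 in tendon cells (SE 0.31, edgeR adjusted p = 3.8e-04), between 1.83 and 2.15 under the tested alternatives with both mice, and -1.44 in osteoblasts (SE 0.37, edgeR adjusted p = 0.0084). From 1 mouse alone the osteoblast value was -0.79 (young) and -2.22 (old). All 5 blood groups were lower, from -5.96 (SE 0.59) in progenitors to -1.68 (SE 0.47) in neutrophils, where the call was lost with DESeq2 (-1.18, adjusted p = 0.11) and the young mouse alone gave -0.46. Of the other imprinted genes on a list of 12, 9 could be tested, and 5 of them were also higher in tendon cells, led by H19 (3.03, SE 0.52) and Meg3 (2.95, SE 0.30). Of all genes, 7.11% passed in the tendon contrast in either direction. In B-lineage, erythroid and megakaryocyte cells 7 of the 9 were lower, where 61.3%, 75.0% and 60.3% of all genes passed. Progenitors, with the lowest value of Cdkn1c, also had 7 lower (background 70.4%). There Phlda2 (6.46, SE 0.80) and Kcnq1ot1 (1.32, SE 0.21) were higher. In neutrophils 4 were lower (background 56.8%).

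Cdkn2a was rare and was held by few cells. Osteoblasts held 34 UMIs in 21 of 515 young cells and 100 UMIs in 37 of 327 old cells, or 8.44 CPM (95% interval 5.85 to 11.8) and 17.9 CPM (14.6 to 21.8). Marrow stromal cells held 28 and 47 UMIs, or 1.64 and 3.07 CPM, and fibroblasts 8 and 73 UMIs, or 0.382 and 5.64 CPM. The osteoblasts of both mice stood above the marrow stromal cells and fibroblasts of the same mouse, with intervals that did not overlap. More than in any named group, the Cdkn2a UMIs lay in the unassigned cells, which held 50.9% of them at 3.30 CPM in the young library and 60.6% at 18.1 CPM in the old library. The log2 fold change in osteoblasts was 3.34 (SE 0.58, edgeR adjusted p = 6.6e-04), with 2.62 from the young mouse alone and 3.97 from the old. Tendon cells and chondrocytes had 2 UMIs or fewer in each mouse, too few to place them in the order. Both stand with equal weight in the mean that osteoblasts were set against, so the 3.34 rests in part on counts near 0. No UMI was seen in erythroid cells, progenitors or neutrophils of either mouse. The exact 95% interval reaches up to 0.902 CPM and 0.657 CPM in erythroid cells and up to 2.61 CPM in old neutrophils. Erythroid cells (edgeR adjusted p = 0.015) and progenitors (edgeR adjusted p = 0.026) passed as lower than the mesenchymal mean, but not without the mouse block (adjusted p = 0.058 and 0.070), and these calls rest on counts of 0.

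Cdkn2b, next to Cdkn2a and known as a target of TGF-beta signalling, was as sparse. Fibroblasts held 97 UMIs and 72, or 4.64 and 5.56 CPM. Osteoblasts held 26 and 10 UMIs, or 6.46 and 1.79 CPM, and marrow stromal cells 17 and 23 UMIs, or 0.998 and 1.5 CPM. All 5 blood groups held at most 1 UMI in a mouse. It was lower in marrow stromal cells (log2 fold change -1.55, SE 0.58, edgeR adjusted p = 0.046) and higher in fibroblasts (1.31, SE 0.46, edgeR adjusted p = 0.046), and both calls were lost with DESeq2 (adjusted p = 0.085 and 0.28). The marrow stromal value was -0.24 from the old mouse alone, and the fibroblast value was 0.78 from the young and 2.00 from the old mouse. Unassigned cells held 46.7% of the young UMIs at 5.22 CPM and 65.0% of the old ones at 10.4 CPM. B-lineage cells, erythroid cells and progenitors passed as lower, with 0 to 1 UMIs each.

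Cdkn2c was highest in B-lineage cells, at 125 CPM and 119 CPM, and next in erythroid cells at 68.7 and 69.2 CPM. The mesenchymal groups lay between 20.2 and 38.8 CPM, and the intervals of chondrocytes, tendon cells and young osteoblasts overlapped. Against the mesenchymal mean it was higher by 1.89 on the log2 scale in B-lineage cells (SE 0.17, edgeR adjusted p = 4.7e-08) and 1.64 in erythroid cells (SE 0.15, edgeR adjusted p = 1.9e-08). Megakaryocytes were lower at -1.19 (SE 0.32) and neutrophils at -1.51 (SE 0.38), both called on few UMIs. On thinned cells the megakaryocyte value was -2.59 (adjusted p = 0.060) and the neutrophil value -0.43 (adjusted p = 0.58), and the young mouse alone gave -0.28 in neutrophils. Marrow stromal cells passed at -0.72 (SE 0.17), which was lost on thinned cells (-0.40, edgeR adjusted p = 0.27), and fibroblasts at 0.44 (SE 0.16, edgeR adjusted p = 0.048), which was lost with DESeq2 (adjusted p = 0.24).

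Cdkn2d was a gene of megakaryocytes. They held 478 CPM and 526 CPM, with a UMI in 94.0% and 86.0% of cells at medians of 10187 and 11242 UMIs. B-lineage cells followed at 246 and 203 CPM and neutrophils at 114 and 146 CPM, and no mesenchymal group exceeded 37.5 CPM. The fitted log2 fold change was 4.51 in megakaryocytes (SE 0.15, edgeR adjusted p = 5.4e-14), 2.83 in B-lineage cells (SE 0.17) and 2.81 in neutrophils (SE 0.19), all called. Erythroid cells passed at 0.54 (SE 0.19, edgeR adjusted p = 0.014), from 28.9 and 34.4 CPM, but not with DESeq2 (0.37, adjusted p = 0.091). No mesenchymal contrast of Cdkn2d passed.

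Cdkn3 was nearly silent in most mesenchymal cells. Erythroid cells held 366 UMIs and 781, or 89.5 and 139 CPM, with a UMI in 53.8% and 66.0% of cells. B-lineage cells stood at 89.3 and 57.0 CPM, megakaryocytes at 51.7 and 18.9, and progenitors at 16.1 and 3.23. Among mesenchymal groups osteoblasts held 4.47 and 5.73 CPM, and marrow stromal cells 0.352 and 0.523. In the fit the log2 fold change was 7.06 in erythroid cells (SE 0.35, edgeR adjusted p = 6.3e-12), 5.88 in B-lineage cells (SE 0.47), 5.28 in megakaryocytes (SE 0.60) and 3.34 in progenitors (SE 0.58). The old mouse alone gave 4.52 in B-lineage cells, 3.50 in megakaryocytes and 0.96 in progenitors. Osteoblasts passed at 2.92 (SE 0.73, edgeR adjusted p = 0.0072), but on thinned cells the value was 0.18 (adjusted p = 0.98). Cdkn3, Cdkn2a and Cdkn2b entered the test because of the groups in which they are high, so their calls lean on those groups.

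The blood groups with much Cdkn3 were also the groups with many dividing cells. At least 3 of 6 G2 and mitosis markers (Mki67, Top2a, Birc5, Tpx2, Cenpf and Nusap1) were detected in 94.7% of young and 95.6% of old erythroid cells, in 56.8% and 40.8% of B-lineage cells, in 48.0% and 29.2% of progenitors, and in 13.4% and 12% of megakaryocytes. In marrow stromal cells the share was 0.136% and 0.555%, and in fibroblasts 0.490% and 0.802%. Osteoblasts had the highest mesenchymal share, 1.17% and 2.45%. In their contrast, where Cdkn3 and Cdkn2a were called higher, 6 of 6 G2 and mitosis markers and 4 of 6 S-phase markers were higher too. With all such cells left out, a choice made after the data were seen, 24 calls of the genes were left across the contrasts in place of 43. Over all genes 42277 calls were left in place of 59761. Cdkn3, Cdkn2a and Cdkn2b fell under the filter on low counts, and the erythroid group had too few cells. Cdkn2c in B-lineage cells then had a log2 fold change of 0.14 (SE 0.34, edgeR adjusted p = 0.78). Cdkn2d kept its call in B-lineage cells at 1.38 (SE 0.28, edgeR adjusted p = 7.5e-04), in megakaryocytes at 4.44 (SE 0.17) and in neutrophils at 3.39 (SE 0.20). Few neutrophils, 0% and 2.77%, were in G2 or mitosis, so leaving these out changes little in that group.

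Dividing cells were then compared with non-dividing ones inside the mesenchymal groups. No inhibitor was a marker of the cycle or of a group. There were 22 young and 26 old mesenchymal cells in G2 or mitosis, against 3498 and 1431 cells with none of 12 G2, mitosis and S-phase markers. The former had at least 3 G2 and mitosis markers, whatever their S-phase markers. All 6 S-phase markers were also higher in them, at a median log2 fold change of 11.91, beside 10.68 in the S-phase cells described below. The group is thus not free of S-phase transcripts. The size of these values follows in part from the choice of non-dividing cells without any marker. Of 7 inhibitors tested, 5 passed and 4 of them were higher, where 14.4% of all genes passed. Cdkn2b fell under the filter. Scrublet scored 5 of the young and 3 of the old dividing cells as doublets, and all 5 calls passed without doublets. Cdkn3 and Cdkn2a entered this test only through the dividing cells, where they were high, so their p-values there are no independent support. With no filter on low counts edgeR's values were 7.21 for Cdkn3 (SE 0.42) and 2.42 for Cdkn2a (SE 0.71, adjusted p = 0.0091).

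Cdkn3 stood at 68.6 CPM in the young and 68.6 CPM in the old dividing cells, from 26 and 35 UMIs, against 0.385 and 0.330 CPM in the non-dividing cells, from 8 and 4 UMIs. In the fit this was a log2 fold change of 7.47 (SE 0.47, edgeR adjusted p = 2.8e-06). Cdkn2c rose from 28.7 to 121 CPM in young and from 24.0 to 116 CPM in old cells, by 2.21 on the log2 scale (SE 0.20, edgeR adjusted p = 2.5e-05). Cdkn2d rose from 27.5 to 121 CPM and from 24.3 to 120 CPM, at 2.25 (SE 0.22, edgeR adjusted p = 3.6e-05), though on thinned cells it missed the threshold (1.74, adjusted p = 0.10). The dividing and non-dividing intervals did not overlap in either mouse for any of these 3 genes. The UMIs of the dividing cells lay in 14 and 15 cells for Cdkn2c, 10 and 11 for Cdkn2d, and 10 and 8 for Cdkn3. The intervals do not cover this spread between cells. Non-dividing cells also held fewer UMIs per cell, so a lack of markers there can also reflect depth.

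The fourth inhibitor that was higher was Cdkn2a, with 6 UMIs in 3 of 22 young cells and 10 UMIs in 5 of 26 old cells. This gave 15.8 CPM (5.81 to 34.5) and 19.6 CPM (9.40 to 36.1), against 1.20 and 5.20 CPM in non-dividing cells. The log2 fold change was 2.61 (SE 0.67, edgeR adjusted p = 0.027) and missed the threshold without the mouse block (adjusted p = 0.072). The old mouse alone gave 1.66. Dividing cells came from osteoblasts (6 and 8 cells), fibroblasts (12 and 8) and marrow stromal cells (4 and 10), a mix richer in osteoblasts than the non-dividing cells. When the non-dividing level was weighted to this mix, the ratio of dividing over non-dividing cells for Cdkn2a went from 13.2 to 9.31 (young) and from 3.77 to 2.18 (old). For Cdkn2c it was 4.04 and 5.42 with the weights, and for Cdkn2d 4.62 and 5.56.

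Cdkn1c went the other way. It stood at 173 CPM in young and 220 CPM in old non-dividing cells and at 31.7 and 56.8 CPM in dividing cells, with intervals that did not overlap in either mouse. The log2 fold change was -2.07 (SE 0.50, edgeR adjusted p = 0.018), and DESeq2 gave an adjusted p of 0.074. Cdkn1a, at 267 and 171 CPM in dividing against 218 and 150 CPM in non-dividing cells, had a log2 fold change of 0.28 (SE 0.28), and Cdkn1b one of -0.41 (SE 0.25). Neither passed, which does not show that they were equal. Weighted to the mix of cell groups, the ratio for Cdkn1a turned from 1.22 to 0.871 (young) and from 1.14 to 0.861 (old).

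**Figure D2:**
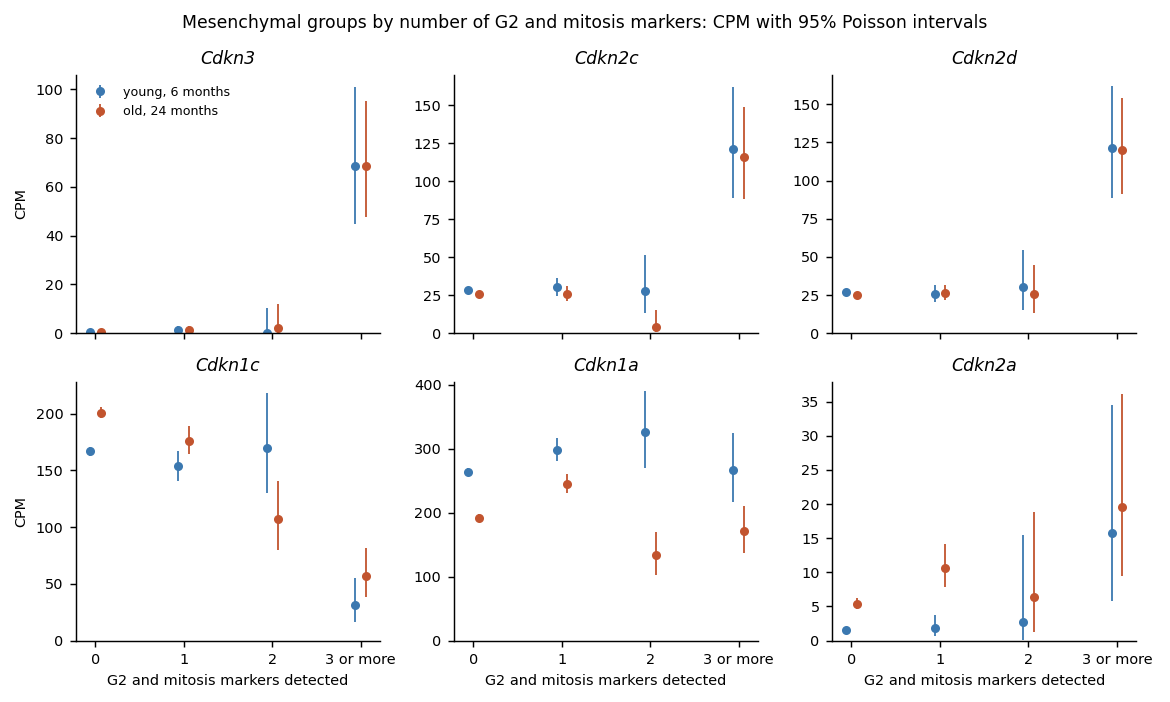
Level in CPM (vertical axis, linear) of 6 genes in mesenchymal cells with 0, 1, 2 or at least 3 G2 and mitosis markers detected (horizontal axis), with the 2 mice in blue and orange and exact 95% Poisson intervals as bars. Cdkn3, Cdkn2c and Cdkn2d stay low up to 2 markers and stand high at 3 or more, where Cdkn2c reached 121 CPM and 116 CPM.

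Levels were also read along the number of markers. With 0, 1 and 2 markers Cdkn2d stood at 27.2, 25.6 and 30.6 CPM in young cells and at 25.3, 26.1 and 25.7 CPM in old cells. With 3 or more markers it stood at 121 and 120 CPM. Cdkn1c stood at 167, 154 and 170 CPM in the young mouse and then at 31.7 CPM, and at 201, 176 and 107 CPM in the old mouse and then at 56.8 CPM. Only 38 young and 31 old cells had 2 markers.

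In mesenchymal cells in S phase no inhibitor passed. These were 24 young and 44 old cells with at least 3 S-phase markers and fewer than 3 G2 and mitosis markers. Cells with at least 3 of both kinds were counted in G2 or mitosis. edgeR's quasi-likelihood test called 0 of 7 inhibitors, where 0.895% of all genes passed. At an unadjusted p below 0.05 it gave 1 (Cdkn1b), and DESeq2 gave 0. Cdkn3 had 0 UMIs in both mice, with exact 95% intervals up to 8.60 CPM and 4.56 CPM, below the level in G2 or mitosis. That comparison is between cells already split by their G2 and mitosis markers. Without the filter on low counts Cdkn1b (-0.83, SE 0.26, edgeR adjusted p = 0.039) and Cdkn1c (-0.98, SE 0.24, edgeR adjusted p = 0.0022) passed as lower.

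Other genes of the cycle in the same dividing mesenchymal cells came from fixed lists. All 3 A-type and B-type cyclins were higher, with Ccnb2 at 8.50 (SE 0.44) and Ccnb1 at 6.82 (SE 0.38) on the log2 scale, and so were all 4 CDKs, with Cdk1 at 7.94 (SE 0.26) and Cdk2 at 1.79 (SE 0.34). Of 5 D-type and E-type cyclins 3 were higher, led by Ccne1 (4.84, SE 0.41) and Ccne2 (4.71, SE 0.48). Of 10 pocket proteins and E2F factors 7 were higher, led by E2f2 (5.08, SE 0.53) and E2f1 (3.34, SE 0.58). Of 16 regulators of the inhibitors 5 were higher, led by Cks1b (2.67, SE 0.21) and Skp2 (2.37, SE 0.48), which belong to the ligase that marks p27 for breakdown. Cdkn3, Cdkn2c and Cdkn2d were thus higher in the same cells as the kinases and most of these cyclins. In S phase the D-type cyclin Ccnd1 was the 1 gene of these lists, other than the markers, that was higher (2.09, SE 0.30).

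Too few erythroid and B-lineage cells lacked all 12 markers (3 and 1 erythroid, 69 and 8 B-lineage), so dividing cells could not be tested within those groups. In B-lineage cells the values stand side by side. Young cells in G2 or mitosis held 299 CPM of Cdkn2d, 157 CPM of Cdkn2c and 120 CPM of Cdkn3, and the 69 young cells without markers held 98.8, 20.8 and 0 CPM. For Cdkn1b the 69 cells without markers held 302 CPM (229 to 390) and the dividing cells 161 CPM (141 to 182).

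The study asked what marks CD24+ mesenchymal cells, so the inhibitors were compared by CD24 antibody count. Over the mesenchymal groups together, Cdkn1a stood at 321 CPM in 368 CD24+ cells and 263 CPM in 5848 CD24- cells of the young mouse, and at 333 and 190 CPM in 130 and 3115 cells of the old mouse. It was the 1 of 8 inhibitors that passed (log2 fold change 0.63, SE 0.13, edgeR adjusted p = 0.0081), where 9.91% of all genes passed. The make-up of cell groups moved with CD24: 35.2% of young and 32.4% of old chondrocytes and 19.6% and 14.1% of osteoblasts were CD24+, against 3.94% and 2.44% of marrow stromal cells, where Cdkn1a is low. With the cell group as a block the value was 0.28 (SE 0.19, edgeR adjusted p = 0.81), and with a CD24 threshold set on mesenchymal cells alone 0.05 (SE 0.09, adjusted p = 0.82). It also missed the threshold at a mitochondrial limit of 10% (adjusted p = 0.054) and without the mouse block (adjusted p = 0.20). From 1 mouse alone the value was 0.32 (young) and 0.88 (old).

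**Figure D3:**
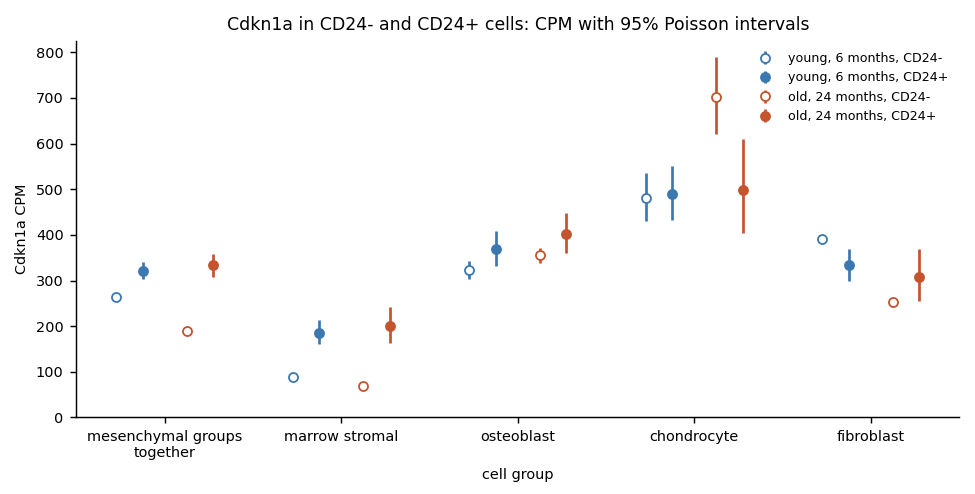
Cdkn1a in CPM (vertical axis, from 0) in CD24- cells (open points) and CD24+ cells (filled points) of the young (blue) and old (orange) mouse, for the mesenchymal groups together and for 4 groups (horizontal axis), with exact 95% Poisson intervals. CD24+ marrow stromal cells stand above CD24- ones in both mice, at 186 against 88.8 CPM in the young and 200 against 68.7 CPM in the old mouse, while chondrocytes and fibroblasts show no common direction.

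Within groups the difference was seen in marrow stromal cells. There 116 CD24+ young cells held 186 CPM of Cdkn1a against 88.8 CPM in CD24- cells, and 44 CD24+ old cells held 200 against 68.7 CPM. The share of cells with a UMI was 35.3% against 23.1% in the young mouse. In the old mouse it was 20.5% against 19.5%, so the 105 UMIs of the old CD24+ cells lay in 9 cells. At an equal depth of 2000 UMIs per cell the shares would be 15.5% against 12.3% in young and 10.5% against 8.68% in old cells. The gap between the raw young shares is thus wider than at equal depth. Osteoblasts held 368 against 322 CPM in the young and 401 against 355 CPM in the old mouse, with intervals that overlapped in both. In fibroblasts CD24+ cells were lower in the young mouse, at 333 against 390 CPM, and higher in the old mouse, at 308 against 252 CPM. Old CD24+ chondrocytes held 499 CPM against 702 CPM, from 12 and 25 cells. These values have no test, since each rests on 1 sum per mouse.

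No other inhibitor passed by CD24. Cdkn2a stood at 1.33 CPM in CD24+ against 1.68 CPM in CD24- cells of the young mouse, from 5 and 68 UMIs, and at 7.44 against 6.19 CPM in the old mouse, from 15 and 206 UMIs. This was a log2 fold change of 0.14 (SE 0.42). Cdkn3 was at 2.40 against 1.04 CPM and 4.96 against 1.41 CPM (log2 fold change 1.59, SE 0.53, edgeR adjusted p = 0.089), beside 6 of 6 G2 and mitosis markers that were higher in CD24+ cells.

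Between the ages, Cdkn2a was the 1 inhibitor that differed by at least 1.5-fold over the whole libraries with an interval that leaves out 1, a rule that 11.2% of all genes met. It held 159 UMIs in 0.944% of young cells and 579 UMIs in 3.00% of old cells, so 1.96 and 8.68 CPM, and the old level was 4.43 times the young one (3.71 to 5.31, exact interval for counting error only). At an equal depth of 2000 UMIs per cell the shares would be 0.330% and 0.930%. The UMIs were unevenly held: in the old library 10 cells held 33.2% of them, and 1 unassigned cell held 66. Without the top cell of each library the ratio was 4.16. The other ratios were 0.729 for Cdkn1a, 0.834 for Cdkn1b, 0.982 for Cdkn1c, 1.38 for Cdkn2b, 0.990 for Cdkn2c, 1.00 for Cdkn2d and 1.47 for Cdkn3. Age cannot be told apart from the animal or its library in any of these values.

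**Figure D4:**
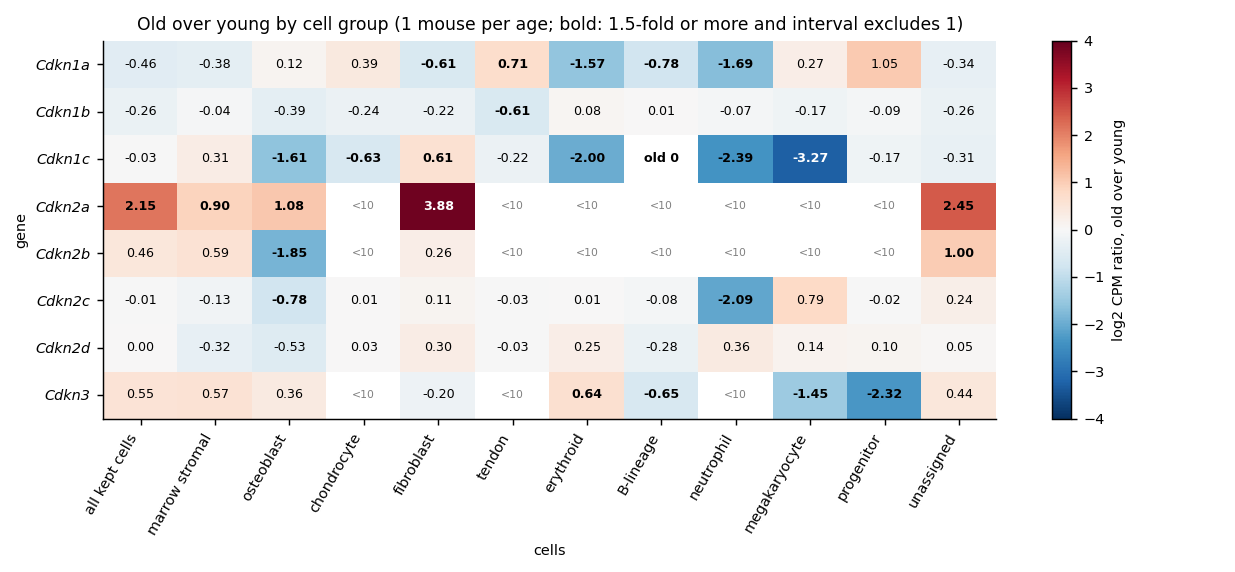
Log2 ratio of the old over the young level in CPM for each gene (vertical axis) in all kept cells, 10 cell groups and the unassigned cells (horizontal axis), as colour and number, bold where the ratio was at least 1.5-fold and its interval left out 1; "<10" marks pairs with fewer than 10 UMIs in the 2 mice and "old 0" a group with no UMI in the old mouse. In the Cdkn2a row all 5 readable cells are positive, and the highest value is 3.88 in fibroblasts.

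Of 63 pairs of gene and cell group with at least 10 UMIs, 23 met the rule, 6 higher and 17 lower in the old mouse, where 9.83% of such pairs of all genes did. Cdkn2a was higher in old fibroblasts by 14.8 (7.11 to 35.5), in old osteoblasts by 2.12 (1.42 to 3.23) and in old marrow stromal cells by 1.87 (1.15 to 3.10). In the unassigned cells, where 8.57% of genes met the rule, it was higher by 5.48 (4.30 to 7.07), and Cdkn2b by 2.00 (1.59 to 2.51). Unassigned cells whose leading marker lists were those of fibroblasts and tendon held 61 Cdkn2a UMIs in 54 old cells, 70.1 CPM in 20.4% of them, and no UMI in 118 young cells. This pair of lists was the most extreme: cells led by the marrow stromal and osteoblast lists held 11.2 CPM in young and 6.96 CPM in old cells, from 19 and 11 UMIs, and cells led by the marrow stromal and tendon lists held no UMI in either mouse.

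Cdkn1a and Cdkn1c split by group. Cdkn1a was lower in old fibroblasts (0.654, interval 0.628 to 0.681), neutrophils (0.311, 0.219 to 0.440), erythroid cells (0.338, 0.161 to 0.674) and B-lineage cells (0.584, 0.331 to 0.970), and higher in old tendon cells (1.64, 1.28 to 2.10). Cdkn1c was higher in old fibroblasts (1.53, 1.44 to 1.62) and lower in old osteoblasts (0.328, 0.281 to 0.383) and chondrocytes (0.647, 0.493 to 0.840). It was also lower in old erythroid cells (0.250), neutrophils (0.191) and megakaryocytes (0.103). B-lineage cells held 38 UMIs, in 14 of 368 young cells, and 0 in 49 old cells. In neutrophils the Cdkn1c UMIs lay in 6 and 7 cells, and a Cdkn1a UMI was seen in 12.7% and 10.5% of cells. The intervals count each UMI on its own and do not cover the spread between cells. Cdkn1b was lower in old tendon cells (0.655, 0.478 to 0.891).

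Old osteoblasts were lower in 3 inhibitors and higher in 1. Beside Cdkn1c, Cdkn2b stood at 6.46 and 1.79 CPM (ratio 0.277, 0.119 to 0.594) and Cdkn2c at 34.8 and 20.2 CPM (0.582, 0.450 to 0.751), while Cdkn2a stood at 8.44 and 17.9 CPM. The whole of the osteoblast group leaned the same way: the median ratio over its genes was 0.890, and 480 of the 2006 genes that met the rule were higher. Cdkn3 was higher in old erythroid cells (1.55, 1.37 to 1.76) and lower in old progenitors (0.200, 0.0834 to 0.415), megakaryocytes (0.365, 0.206 to 0.623) and B-lineage cells (0.638, 0.402 to 0.973). The share of cells in G2 or mitosis moved with it in progenitors, from 48.0% to 29.2%, and in B-lineage cells, from 56.8% to 40.8%, but stayed near its value in erythroid cells (94.7% and 95.6%) and megakaryocytes (13.4% and 12%), and its part in these ratios was not tested. Cdkn2c was lower in old neutrophils (0.235, 0.0589 to 0.861, from 7 and 5 UMIs). Cdkn2d met the rule in no group.

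For each inhibitor genes with the most similar pattern over the 20 sums of mouse and cell group were found by Pearson's r of log2(CPM + 5) among 11022 genes with a mean of at least 5 CPM, as a description of sums that share libraries. For Cdkn3 they were Prr11 (r = 0.99), Ccnb2 (0.98) and Aurka (0.98), for Cdkn2c Zw10 (0.91), Terf1 (0.90) and Rad21 (0.89), and for Cdkn2d Atp2a3 (0.94), Mdm1 (0.94) and Cmah (0.94). Cdkn1c followed Tgfb3 (0.98) and Abi3bp (0.97), and Cdkn1a followed Klf4 (0.94), Trps1 (0.93) and Scara3 (0.93). Cdkn1b was nearest to Pip4p1 (0.89), Far1 (0.88) and Arhgap17 (0.88). Cdkn2a, at a mean of 2.48 CPM, was nearest to Enpp6 (0.84), Chn1 (0.82) and Bcar3 (0.81), and Cdkn2b, at a mean of 1.49 CPM, to Gm32219 (0.88), Lnx1 (0.88) and Cgnl1 (0.87). Between the inhibitors themselves r was highest for Cdkn1a with Cdkn1c (0.77) and lowest for Cdkn1c with Cdkn3 (-0.74).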

How the data were processed

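Per the labels, the authors aligned the libraries to mm10 with Cell Ranger (6.1.1 in the file headers). They deposited raw UMI counts per gene and barcode, with the CD24 antibody counts in the same matrices, and used R 4.0.3 and Seurat 4.0. Those counts were used as deposited. Barcodes with at least 200 genes and at most 20% mitochondrial UMIs were kept, and doublets, scored with Scrublet (2.67% of young, 1.02% of old cells), were kept in the main values. Counts were summed per mouse and group and tested in edgeR 4.0.16 (R 4.3.3; TMM scaling, filterByExpr, adjusted p of at most 0.05). The mouse was the block because both sums of a pair come from the same animal. CD24+ cells lay above the Otsu threshold of the log antibody count. DESeq2 1.42.0 was an alternative. On simulated data with 200 genes changed by a log2 fold change of 2, the test recovered 99% for cell groups (12384 genes), 70.6% for dividing cells (10473 genes) and 95.5% for CD24 (14486 genes). False calls numbered 5, 6 and 8. The changed genes were drawn from those above the median level, with 1 fixed spread and no difference between mice. The rates describe that setting only. Named genes were all 8 inhibitors, the 2 called genes with the largest change in each direction of each fixed list, and the 3 most similar genes, of which 1 is not reported here. Members and lists were chosen with earlier results of these data known. Sequences and loci came from RefSeq (GRCm38.p6), matched by symbol for 8 of 8 genes. Neither library had a replicate, so nothing here measures the spread between mice of an age.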

Additional observations from a re-analysis of the deposited data

Results flagged for a closer look

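For 3 genes the ratio of old over young CPM lay in opposite directions in different cell groups, each with an interval that leaves out 1. Cdkn1a stood at 1.64 in tendon cells and 0.311 in neutrophils, the latter from 71 UMIs in 19 young and 67 UMIs in 34 old cells. Cdkn1c stood at 1.53 in fibroblasts and 0.103 in megakaryocytes, the latter from 9 and 1 UMIs. Cdkn3 stood at 1.55 in erythroid cells and 0.200 in hematopoietic progenitors. With 1 mouse per age, none of these differences between groups was tested.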

How the results depend on the processing

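With either mouse alone, 97 of 98 values of the 49 member calls kept their direction; the exception was Cdkn1a in neutrophils, at 0.09 without the old mouse and -1.22 without the young mouse. In size, that exception and 23 others of the 49 values moved by more than their standard error without the old mouse, and 27 without the young mouse. Of the 49 calls, 19 missed the threshold or turned under at least 1 alternative, and the report names those of weight. The calls of inhibitors across cell groups fell from 43 to 24 without cells in G2 or mitosis, where the erythroid group and 3 genes dropped out and calls over all genes went from 59761 to 42277. Thinning every cell to 2000 UMIs, which leaves out 770 young and 496 old cells and most counts, gave 32172 genes called across cell groups in place of 59761, 557 in place of 1671 and 3 inhibitors in place of 5 for dividing cells, 558 in place of 1446 for CD24, and 8 age calls in place of 23. For dividing cells, 3237 genes were called without a filter on low counts and 2687 without doublets. The CD24 result was the least stable: 2 inhibitors passed without the filter, without doublets and with the mesenchymal threshold, and 0 at a mitochondrial limit of 10%, without the mouse block and with the cell group block. DESeq2 called 693 genes by CD24, the 10% limit 850, the fit without the mouse block 26 and the cell group block 3. The cause of these changes was not tested. Without the replicate block, 39 inhibitor calls across cell groups and 4 for dividing cells were left. A single mouse leaves no test, so it gives no count. Depth limits Cdkn2a, Cdkn2b and the mesenchymal level of Cdkn3.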

Other observations

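In megakaryocytes, the group with the most Cdkn2d, the D-type cyclin Ccnd3 was higher than in the mesenchymal mean by 3.29 (SE 0.18) on the log2 scale, Ccnd2 by 1.22 (SE 0.23) and the pocket protein gene Rb1 by 3.26 (SE 0.19), all called by edgeR's quasi-likelihood test. In neutrophils, also high in Cdkn2d, Ccnd3 was higher by 2.16 (SE 0.21), while Ccnd1 was lower by a log2 value of -3.52 (SE 0.71) and Cdk4 at -2.34 (SE 0.26). Hematopoietic progenitors, low in Cdkn1a and Cdkn1c, held Cdk6 higher by 4.47 (SE 0.20) and Trp53, the gene of p53, by 2.79 (SE 0.12).

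Osteoblasts, the named group with the most Cdkn2a, were higher in Ccnd1 (2.06, SE 0.22), in Ezh2 (0.81, SE 0.17), whose complex is known to silence Cdkn2a, and in Skp2 (1.48, SE 0.31). They also had the highest mesenchymal share of cells in G2 or mitosis, 1.17% and 2.45%. Marrow stromal cells were lower in Ccnd1 (-3.57, SE 0.30) and Ccnd2 (-1.59, SE 0.26) and higher in Cdk6 (0.96, SE 0.25) and Cbx7 (0.97, SE 0.19). Within single mesenchymal cells thinned to 2000 UMIs, cells with a Cdkn1a UMI held more UMIs of the immediate-early genes per cell than those without one, with means of 31.7 against 17.9 in young and 32.1 against 15.5 in old marrow stromal cells. The gap was smaller in fibroblasts, at 24.0 against 17.1 in young and 27.4 against 20.9 in old cells. Cells of 1 mouse are not replicates, so these means carry no test. The p53 targets were also higher in cells with a Cdkn1a UMI, with means of 2.00 against 1.29 in young and 2.12 against 1.19 in old marrow stromal cells. In old osteoblasts the p53 means were 1.00 against 0.817. In old chondrocytes they were not, at 0.900 against 1.00. The rank correlation of Cdkn1a with the immediate-early genes within groups lay between 0.14 and 0.32, too weak in sparse counts to be read.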
